A study of Arabidopsis thaliana with 4 samples.

Results

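The 9 genes described here encode enzymes of flavonoid and anthocyanin biosynthesis and 1 of its regulators, each read by 1 probe set, a group of short probes for a transcript, among 22810 probe sets on an Affymetrix ATH1 array. They were chosen by name for their place in the pathway, with earlier results of these data known. They are CHS (AT5G13930, probe set 250207_at), CHI (AT3G55120, 251827_at), F3H (AT3G51240, 252123_at), F3'H (AT5G07990, 250558_at), FLS1 (AT5G08640, 250533_at), DFR (AT5G42800, 249215_at), LDOX (AT4G22880, 254283_s_at), the anthocyanin glycosyltransferase gene UF3GT (AT5G54060, 248185_at) and PAP1 (AT1G56650, 245628_at). The pairing of probe set and locus came from the definition of the gene set, and all 9 loci were found in the RefSeq gene table for TAIR10.1. No 2 of them were neighbours, with at least 84 annotated genes between any 2 on one chromosome. The suffix _s_at marks probe sets that can bind more than 1 transcript, so the LDOX signal may include others.

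RNA came from rosette leaves of soil-grown Arabidopsis thaliana, 21 days after sowing, grown without fertilizer at 23 °C in days of 14 h with moderate light (350 µmol photons per m2 and s). The wild type and an antisense line were measured on 2 arrays each. The label of the wild type names neither a construct nor an accession. The line AS12 is Col-0 carrying an antisense construct against AOX1a, the gene of a mitochondrial alternative oxidase, driven by the 35S CaMV promoter, which is active in most plant cells, so that the construct is not limited to one cell type. It is a single transformed line. Each array held RNA pooled from several plants: 7 for wild type 1, 9 for wild type 2, 9 for antisense 1 and 8 for antisense 2. All plants came from one growth experiment as far as the labels say, so the p-values measure the spread between such pools. The levels of AOX1a and of markers of leaf cell types were not analysed here, since the files pair no probe set with those loci, so neither the labels nor the tissue could be checked against their transcripts.

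Flavonoids are made from phenylalanine by way of a CoA ester that CHS condenses with malonyl-CoA into a chalcone. CHI, F3H and F3'H turn the chalcone into dihydroflavonols, which are shared by the branches: FLS1 draws them towards flavonols, colourless sunscreens, and DFR and LDOX draw them towards anthocyanidins, which sugar transferases make into the stable red and purple anthocyanins. In Arabidopsis the early genes of the pathway answer to MYB11, MYB12 and MYB111, while the late genes answer to complexes of PAP1 or a close relative with a bHLH protein and TTG1. Strong light, sucrose and lack of nitrogen or phosphate are known to raise the late genes.

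All 9 genes passed the filter on dim probe sets, and none passed the test of a difference between the genotypes. Limma's adjusted p, taken over 13648 tested probe sets, rounded to 1 for every one of them, and the unadjusted p was under 0.05 for 0 of the 9. With the threshold at 0.05, limma called 0 probe sets of the whole table higher (0%) and 0 lower (0%), the lowest adjusted p being 0.0544. At an unadjusted limma p of 0.05, 230 were higher (1.69%) and 149 lower (1.09%). Together these are fewer than that cutoff passes on average where nothing differs. What separated the arrays for these genes was a pattern across both genotypes. Wild type 2 and antisense 1 both lay above wild type 1 and antisense 2 for 8 of the 9 genes, which held for 27.9% of all tested probe sets, and FLS1 was the exception. The reverse, with wild type 1 and antisense 2 higher, held for 0 of the 9 and for 21.9% of the probe sets.

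**Figure D1:**
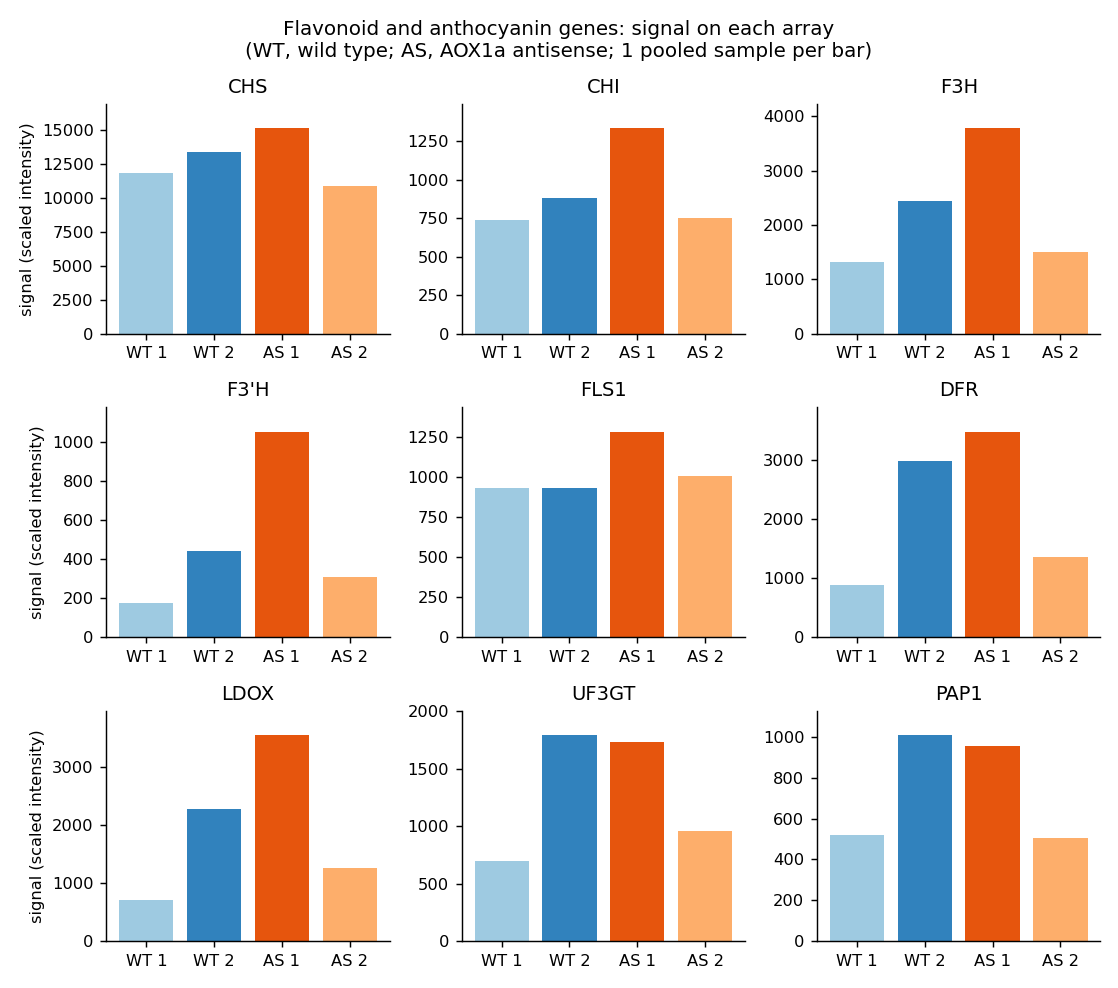
Signal (scaled intensity, linear axes from 0, a separate axis for each gene) of the 9 genes on the 2 wild-type (WT) and the 2 AOX1a antisense (AS) arrays. Each bar is 1 array of 1 pooled sample, so there are no error bars; in every panel but that of FLS1 the bars of WT 2 and AS 1 are the taller ones.

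Among the early genes, CHS, the entry enzyme, had the narrowest range but that of FLS1. Its signal was 11843 in wild type 1, 13394 in wild type 2, 15145 in antisense 1 and 10878 in antisense 2. The antisense arrays were thus the highest and the lowest of the 4, and they enclosed both wild-type arrays. The log2 difference between genotypes was 0.03 (95% interval -0.44 to 0.49), which is 1.02-fold, and 88.5% of the tested probe sets differed by more.

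CHI, which closes the chalcone ring to a flavanone, read 736.6 and 880.8 in wild type 1 and 2, and 1332.5 and 749.1 in antisense 1 and 2. Antisense 1 alone stood high, and antisense 2 lay between the wild-type arrays. The mean signal was 1041 ± 412 for the antisense line against 809 ± 102 (SD, n = 2), a log2 difference of 0.31 (interval -0.42 to 1.05).

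F3H, which hydroxylates flavanones to dihydroflavonols, read 1313 in wild type 1, 2450 in wild type 2, 3780 in antisense 1 and 1500 in antisense 2. Within each genotype 1 array was high and 1 was low: wild type 2 was 1.87-fold above wild type 1, and antisense 1 was 2.52-fold above antisense 2. The genotypes overlapped, with a log2 difference of 0.41 (interval -0.76 to 1.58).

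F3'H, a cytochrome P450 that adds the hydroxyl group separating quercetin and cyanidin from their simpler relatives, had the widest range of the 9, 5.96-fold from lowest to highest array. It read 176.6 and 440.9 in wild type 1 and 2, and 1052.4 and 306.8 in antisense 1 and 2. Antisense 2 lay below wild type 2, so the groups overlapped although 3 of the 4 ratios across the genotypes, antisense over wild type, were above 1. The mean was 680 ± 527 for the antisense line against 309 ± 187 (SD, n = 2). The log2 difference of 1.03 (interval -0.56 to 2.61), or 2.04-fold, was the largest of the 9 between the genotypes, and 1.01% of the tested probe sets differed by more. Its unadjusted p by limma was 0.165, and the difference stood at 0.14 without antisense 1, 0.37 without wild type 1, 1.69 without wild type 2 and 1.92 without antisense 2.

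FLS1, the flavonol branch enzyme, was the only one of the 9 whose genotypes did not overlap. It read 931.5 and 930.6 in wild type 1 and 2, and 1282.5 and 1006.1 in antisense 1 and 2. Both antisense arrays were above both wild-type arrays, an order met by 1 of the 9 genes and by 10.7% of all tested probe sets, a share close to that of the genes. The opposite order was met by 0 of the 9 and by 16.1% of the probe sets. The mean was 1144 ± 195 against 931 ± 0.64 (SD, n = 2), and the log2 difference of 0.29 (interval -0.20 to 0.78), or 1.22-fold, had an unadjusted p of 0.202 by limma. The wild-type arrays were nearly equal for FLS1, and 99.7% of the tested probe sets differed more between them. Without antisense 1 the difference was 0.11.

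Of the late genes, DFR, which reduces dihydroflavonols and so opens the anthocyanin branch, read 887.4 in wild type 1, 2978 in wild type 2, 3471 in antisense 1 and 1352 in antisense 2. Wild type 2 was closer to antisense 1 than to the other wild-type pool. The gap of 3.36-fold between the wild-type arrays was exceeded by 0.234% of the tested probe sets, and that of 2.57-fold between the antisense arrays by 1.58%. Against these gaps the log2 difference between genotypes was 0.41 (interval -1.16 to 1.99).

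LDOX, which makes the coloured anthocyanidin, followed the same order of arrays. Its signals were 697.3 and 2268 in wild type 1 and 2, and 3535 and 1247 in antisense 1 and 2. Wild type 2 exceeded wild type 1 by 3.25-fold, and antisense 1 exceeded antisense 2 by 2.83-fold. The log2 difference between genotypes was 0.74 (interval -0.87 to 2.35), which is 1.67-fold, with groups that overlapped. It was -0.11 without wild type 1 and -0.01 without antisense 1, against 1.59 without wild type 2 and 1.49 without antisense 2.

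UF3GT, which codes for a sugar transferase acting on anthocyanins, read 698.8 and 1789 in wild type 1 and 2, and 1729 and 955 in antisense 1 and 2. The highest array was here a wild-type one, and wild type 1 was again the lowest. The log2 difference between genotypes was 0.20 (interval -0.98 to 1.38).

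PAP1, the MYB activator of the late genes, read 521 in wild type 1, 1008 in wild type 2, 957.1 in antisense 1 and 507.1 in antisense 2. The 2 high and the 2 low arrays were each nearly level across the genotypes: antisense 1 stood at 0.95 of wild type 2, and antisense 2 at 0.97 of wild type 1. The means were 732 ± 318 for the antisense line against 764 ± 344 (SD, n = 2), and the log2 difference of -0.06 (interval -1.06 to 0.95) was the only one of the 9 below 0.

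**Figure D2:**
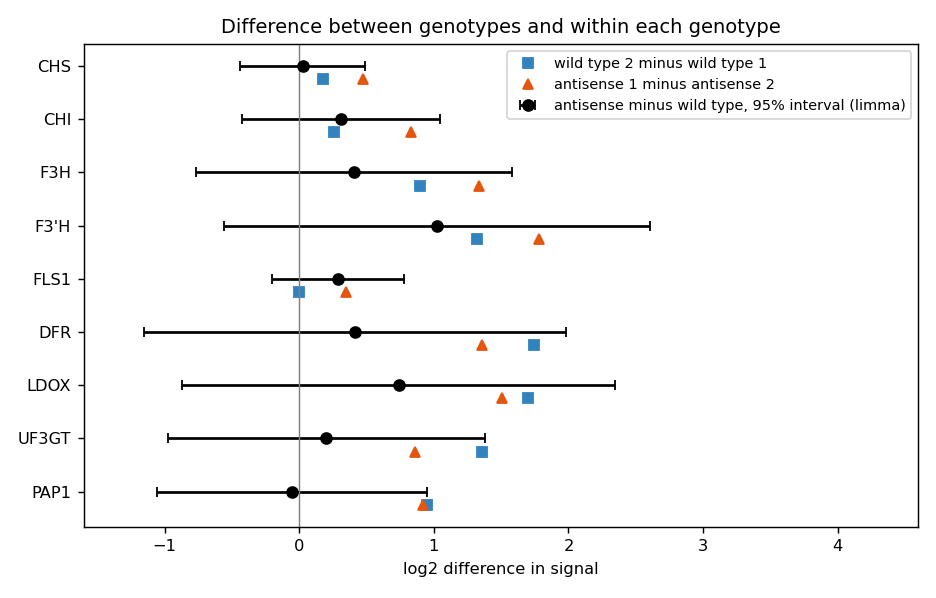
Log2 differences in signal for each gene: black points, antisense minus wild type with limma's 95% interval (2 arrays per genotype); squares, wild type 2 minus wild type 1; triangles, antisense 1 minus antisense 2. Every interval includes 0, and for 7 of the 9 genes, and for 51.2% of the tested probe sets, both within-genotype differences are larger than the difference between the genotypes.

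Between the genotypes, then, 8 of the 9 genes had a higher mean log2 signal in the antisense line and 1 a lower one, with a median of 0.31 on the log2 scale, where the median over all tested probe sets was -0.03 and 44% were higher. None of these differences passed the test, and for all but F3'H and FLS1 the direction turned when a single array was left out. Without antisense 1, 2 of the 9 were higher (45.1% of the tested probe sets) and their median was -0.21. Without wild type 1, 3 were higher (43.8%) and their median was -0.06. All 9 were higher without wild type 2 (47.1%) and without antisense 2 (48%), with medians of 0.86 and 0.73. The median over all tested probe sets stayed between -0.04 and -0.01 whichever array was left out. For 0 of the 9 did all 4 antisense to wild-type ratios pass 1.5-fold in one direction, a limit that 0.528% of the tested probe sets met upwards and 0.169% downwards. For 7 of the 9 the difference between the genotypes was smaller than either difference within a genotype, as it was for 51.2% of the tested probe sets, and the exceptions were CHI and FLS1. For CHI it lay between the 2 differences within a genotype, and for FLS1 it was well above that of the wild-type arrays and below that of the antisense arrays.

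Between the 2 arrays of a genotype most of the 9 genes differed more than the typical transcript. The median log2 difference of wild type 2 minus wild type 1 was 0.95 for the 9 genes, or 1.93-fold, and 0.04 over all tested probe sets, whose median absolute difference was 0.22. For antisense 1 minus antisense 2 it was 0.92, or 1.89-fold, against 0.03 over all and a median absolute difference of 0.28. Wild type 2 was at least 1.5-fold above wild type 1 for 6 of the 9, the exceptions being CHS, CHI and FLS1, and for 6.11% of the tested probe sets. Antisense 1 was at least 1.5-fold above antisense 2 for 7 of the 9, all but CHS and FLS1, and for 10.5% of the tested probe sets. These 2 differences share no array, but both were taken in the direction in which most of the 9 genes were higher. The genes were also chosen with earlier results known, so the agreement of the 2 differences is a description and not a test.

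**Figure D3:**
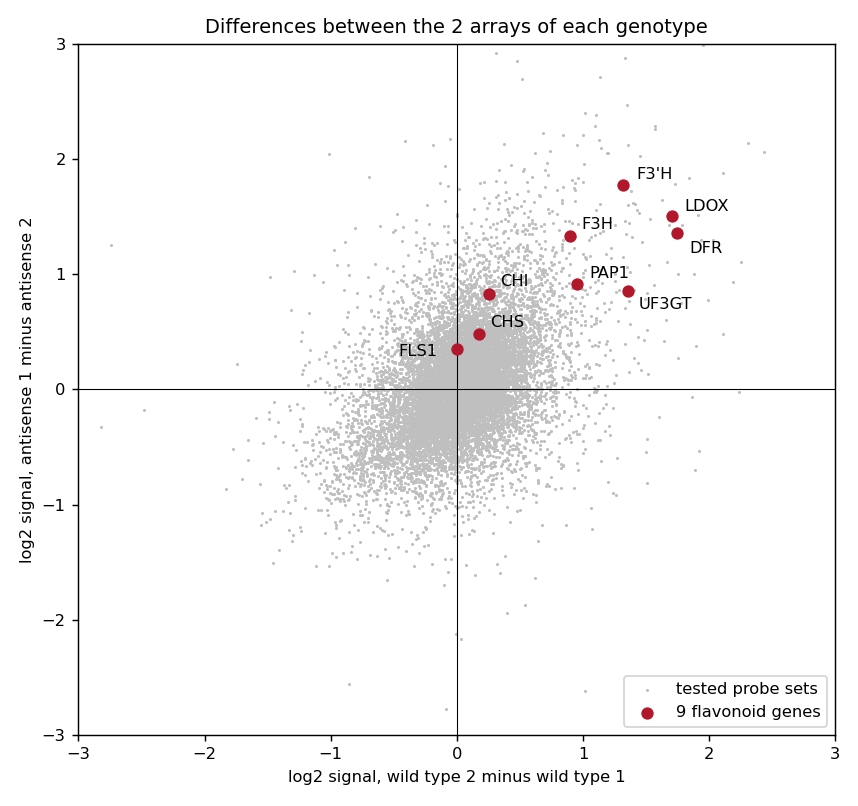
Log2 signal of wild type 2 minus wild type 1 (horizontal) against antisense 1 minus antisense 2 (vertical) for the 13648 tested probe sets (grey) and the 9 genes (red). F3'H, DFR and LDOX lie at 1.32 to 1.75 on the horizontal and 1.36 to 1.78 on the vertical axis, at the upper right edge of the grey cloud, while CHS and FLS1 lie inside it; the axes end at 3 and leave out 7 probe sets beyond.

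These differences were not of one size along the pathway. Both differences were at least 2-fold for F3'H, DFR and LDOX, 3 of the 9 genes, and for 0.535% of the tested probe sets. F3H and UF3GT came next, each more than 2-fold apart in 1 genotype and less than that in the other. F3H differed by 1.87-fold in the wild type and 2.52-fold in the antisense line, and UF3GT by 2.56-fold and 1.81-fold. The regulator PAP1 differed by 1.93-fold and 1.89-fold, almost the same in both genotypes. CHI differed by 1.20-fold in the wild type and 1.78-fold in the antisense line, and CHS by 1.13-fold and 1.39-fold. The branch point enzymes differed from each other. DFR was 3.36-fold higher in wild type 2 than in wild type 1, while FLS1, which uses the same substrates, stood at 0.999 of its level there; in the antisense line the ratios were 2.57 and 1.27. No test was made of these differences between genes, since each rests on the same 4 arrays.

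The order of the arrays was shared as well. CHI, F3H, F3'H, DFR and LDOX, 5 of the 9, had antisense 1 highest, then wild type 2, then antisense 2 and wild type 1 lowest, an order found in 7.74% of the tested probe sets. Antisense 1 was the highest array for 7 of the 9 (28.5% of the tested probe sets), with UF3GT and PAP1 highest in wild type 2. Wild type 1 was the lowest for 6 of the 9 (25.1%), with antisense 2 lowest for CHS and PAP1 and wild type 2 for FLS1. With a limit of 1.5-fold in all 4 pairs, wild type 2 and antisense 1 stood above wild type 1 and antisense 2 for F3H, DFR, LDOX, UF3GT and PAP1, 5 of the 9, and for 1.13% of the tested probe sets; the reverse held for 0 of the 9 and for 1.63%. F3'H missed that limit because wild type 2 and antisense 2, at 440.9 and 306.8, were closer than that. The third way of pairing the arrays, by the number in their titles, separated 0 of the 9 genes, against 11% of the tested probe sets with both arrays numbered 1 higher and 12.3% with both numbered 2 higher.

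Some of the recorded values followed the same division of the arrays and others did not. The pools of wild type 2 and antisense 1, the arrays with the higher signals, each held 9 plants, and those of wild type 1 and antisense 2 held 7 and 8. Of 6 ratios of 3' to 5' signal, which rise when RNA is degraded, 3 had their higher values on the arrays wild type 1 and antisense 2. The first ubiquitin design read 4.68 and 3.82 there, against 3.16 in wild type 2 and 3.45 in antisense 1. The deposited quality sheet gives these same values under the heading Actin. The second actin and second ubiquitin designs separated the arrays by less. The actin ratio read 3.39 and 3.37 there, against 2.96 in wild type 2 and 3.31 in antisense 1. The ubiquitin ratio read 2.31 and 2.25, against 2.14 and 2.17. The share of probe sets called present in the deposited quality sheet was 55.5% in wild type 1 and 55.9% in antisense 2, and 56.2% in wild type 2 and 57.3% in antisense 1. Background, noise and scale factor did not follow the division and instead separated the arrays by the number in their titles. The background was 48.58 in wild type 1 and 47.93 in antisense 1, and 51.81 in wild type 2 and 53.16 in antisense 2. Noise was likewise lower, and the scale factor higher, on both arrays numbered 1. The other 3 ratios of 3' to 5' signal did not set wild type 2 and antisense 1 apart either. The first actin and first GAPDH ratios were higher on both arrays numbered 1, the actin ratio being highest in antisense 1, at 5.40. The second GAPDH ratio was higher in both antisense arrays than in the wild type. The part of any of these values in the pattern of the flavonoid genes was not tested. All 4 samples were grown under the same stated light and harvested in the same stated period of the day. In leaf RNA of whole pools, fewer cells of a type and less RNA per cell cannot be told apart.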

How the data were processed

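RNA of 4 leaf pools was hybridised to 1 array each. Per the labels' descriptions, the authors made labelled cRNA with Affymetrix components and collected signals with MicroArray Suite 5.0. The deposited values are linear signal intensities, 1 per probe set and array. Their means after trimming 2% at each end were 500.046 to 500.054, so the authors' scaling to one average was kept. It hides a shift of all transcripts together. The deposited quality sheet gives other values per array, such as background and percent present.

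Intensities were log2-transformed. Without 64 control probe sets there were 22746, of which the 40% with the lowest mean log2 signal were dropped and 13648 were tested with limma 3.58.1 in R 4.3.3 (eBayes with an intensity trend, Benjamini-Hochberg adjustment, threshold 0.05). The fit had 2 residual and 4.25 prior degrees of freedom. It was also run on simulated arrays with independent errors, without a pattern shared between arrays like that seen here. That run therefore does not show how the fit performs on these arrays. The number of arrays, 4, limits the precision, and an exact test of 2 against 2 values cannot pass the threshold. Levels of different probe sets were not compared.

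The genes and lists were chosen with earlier results of these data known. All 9 genes are named. A wider list of pathway genes, the cell type markers and a planned search for genes of like pattern were not analysed here, for want of a table pairing other probe sets with genes. Sequences are not shown for want of a table that holds them. Alternatives were the replicate number as a block, quantile and median scaling, log2 of the signal plus 8.1, a filter of 60% or none, robust eBayes and eBayes with no trend, and each array left out in turn.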

Additional observations from a re-analysis of the deposited data

How the results depend on the processing

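None of the 9 genes was called under any of 12 alternatives, and the 8 that kept all 4 arrays left every direction as it was. The directions turned in 13 cases, each with 1 array left out. With 1 array out, the log2 difference ran from -0.21 to 0.27 for CHS, -0.10 to 0.73 for CHI, -0.26 to 1.08 for F3H, -0.46 to 1.29 for DFR, -0.11 to 1.59 for LDOX, -0.48 to 0.88 for UF3GT and -0.53 to 0.42 for PAP1, while F3'H (0.14 to 1.92) and FLS1 (0.11 to 0.46) stayed above 0. The spread of the remaining single array is then taken from the rest. Over the whole table, quantile normalization and median scaling each called 1 probe set lower and 0 higher, and leaving out 1 array called 0 to 4 higher and 0 to 1 lower. The replicate block gave 0 calls in either direction, and with it the median of the 9 genes stayed at 0.31. The labels do not say that equal numbers are pairs, so the main fit did not take them as pairs. Deviations of same-numbered arrays correlated at -0.42 across probe sets. Another fit, with the arrays paired crosswise, was chosen after seeing the data and is not among those 12. Results for the 9 genes were not taken from it, so whether it called any of them is not known. Over the whole table it called 42 higher and 2 lower. The causes of these shifts were not tested.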
